A study of Homo sapiens with 4 samples.

Results

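FOS, FOSB, FOSL1, JUN, JUNB, JUND, EGR1, IER2, IER3 and DUSP1 are grouped here as immediate early genes. The mRNA of this class is typically made within minutes of a growth factor or stress signal and without new protein synthesis. The members differ in how far they depend on such signals, JUND least. These 10 genes were chosen by name among the 60671 Ensembl genes of the series. No rule on their values was used, but earlier results of these data were known when they were chosen. Each symbol matched 1 identifier in both expression tables. RNA was sequenced from 2 established human prostate carcinoma lines, 22RV1 and PC3, each expressing shCON, a control shRNA, or shDDX52, an shRNA against the RNA helicase DDX52. All cells were transduced with a lentiviral PLKO.1 vector, selected with puromycin and grown with serum, and knockdown rested on a single shRNA sequence. A single library stands for each of the 4 conditions. Differences below therefore have no replicate check, no p-value was computed, and the order of genes with close values was not tested. The values are in TPM, a length-corrected share of the transcripts in a library, and the read depth behind them is unknown. Each value is an average over a cell population, so a change in how many cells expressed a gene and a change in how much each cell made cannot be told apart.

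FOS, FOSB and FOSL1 proteins pair with JUN, JUNB or JUND to form AP-1, a transcription factor that binds short DNA elements in genes of growth, migration and invasion. FOS-family proteins dimerise only with partners such as the JUN proteins, whereas JUN proteins can also pair with each other. EGR1 is a zinc-finger transcription factor, IER2 and IER3 are small early response proteins, and DUSP1 is a phosphatase that switches MAP kinases off again. Many of these genes are turned on through CArG boxes bound by SRF with ELK factors, and through cyclic AMP response elements bound by CREB and ATF proteins. Their mRNAs are usually short-lived, in part through AUUUA repeats near the end of the transcript.

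The regulatory sequences of the members are shown first, since transcription start and mRNA decay set the level of such short-lived mRNAs. RefSeq promoter windows on GRCh38.p14 were at hand for 8 of the 10 members, all but FOSL1 and IER3. The 250 bases before each start were searched on both strands, but for TATAAA on the strand of transcription only. The cyclic AMP response element half-site TGACG was present in 8 of these 8 windows and in 21.2% of 35114 promoter windows of the same length. The full palindrome TGACGTCA, which holds the half-site on each strand, was present in JUND and DUSP1 and in 1.65% of all windows. The variant TGACATCA was found in JUN alone, against 2.38% of all windows. The CArG box and the EGR element GCGNGGGCG were found in EGR1 alone, against 1.16% and 8.41% of all windows. The letters TATAAA were in FOS, FOSB, JUNB and DUSP1 and in 6.80% of all windows. The AP-1 element TGANTCA was in 0 of the 8 windows and in 6.57% of all. A match of letters is a description and does not show that a protein binds there. The 30-base stretches around the matches in FOS, JUN, JUND and DUSP1 are given below in the direction of transcription, with the half-site, palindrome or variant in capitals, to set the 3 forms of the element side by side.
FOS, chr14:75278751-75278780, plus strand: gtggttgagcccgTGACGtttacactcatt
JUN, chr1:58784096-58784125, minus strand: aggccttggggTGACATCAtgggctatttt
JUND, chr19:18281804-18281833, minus strand: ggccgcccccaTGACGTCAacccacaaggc
DUSP1, chr5:172771297-172771326, minus strand: ggcgggTGACGTCAccgcccCGTCAcgtga

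In the JUN stretch the variant begins 67 bases before the RefSeq start, and in DUSP1 the palindrome begins 125 bases before it and is followed by a further half-site on the other strand. GENCODE 29 places the JUN start further upstream, so that the JUN stretch lies in an annotated 5′ untranslated region there. The IER2 half-site and the TATAAA of FOS also lie in annotated untranslated or coding sequence. Only 27 of the 250 IER2 bases and 196 of the 250 FOS bases were outside such sequence. Of the 8 windows searched, that of EGR1 alone held a CArG box or an EGR element. For that reason its whole window of 250 bases at chr5:138465229-138465478 on the plus strand is shown. FOSL1 and IER3, and sequence further upstream in the other members, were not searched, so such sites may lie there. The capitals mark, in order, the EGR element, a half-site, 2 CArG boxes and a second half-site.
EGR1: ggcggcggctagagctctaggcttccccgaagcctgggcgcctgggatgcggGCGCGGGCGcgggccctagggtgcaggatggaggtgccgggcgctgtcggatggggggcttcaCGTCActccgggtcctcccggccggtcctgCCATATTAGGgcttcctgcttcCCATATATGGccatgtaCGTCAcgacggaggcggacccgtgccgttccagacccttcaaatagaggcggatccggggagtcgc

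The 2 CArG boxes begin 105 and 83 bases before the EGR1 start.

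The transcripts of the members had few exons, and most held the AU-rich letters ATTTA. Over the whole transcript, their median GC content was 57.9%, against 49.6% among all protein-coding genes. In GENCODE 29, 4 of the 10 principal transcripts had 1 exon (JUN, JUNB, JUND and IER2), against 5.84% of 19602 protein-coding genes. The median number of exons was 2 among the members and 8 among all protein-coding genes. The letters ATTTA occurred in the 3′ untranslated region of 9 of 10 members, all but IER2, against 65.9% of 19003 genes with such a region. IER3 had 6 copies, or 8.14 per kilobase, FOS had 5 (6.20) and DUSP1 had 4 (5.95), against a median of 1.46 per kilobase over all genes and 1.92 over the members. FOSL1 had 1 copy, so the 2 members most abundant in PC3, IER3 and FOSL1, stood far apart in this feature. The extended element TTATTTATT, which overlaps ATTTA, was present in FOS and DUSP1 and in 7.93% of all genes. The 30 bases with the densest matches are shown for FOS and DUSP1, which hold the extended element, and for the 2 abundant PC3 mRNAs, with ATTTA in capitals.
FOS, bases 1985 to 2014 of ENST00000303562.8: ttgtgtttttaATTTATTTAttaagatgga
DUSP1, bases 1439 to 1468 of ENST00000239223.3: ggctggtccttATTTATTTAacttcacccg
IER3, bases 766 to 795 of ENST00000259874.5: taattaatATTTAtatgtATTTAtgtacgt
FOSL1, bases 1588 to 1617 of ENST00000312562.6: gagggcagctgctATTTAttttcctaaaga

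The libraries were checked against their labels. With shCON first, DDX52 was 4.88 and 1.20 TPM in 22RV1 and 9.20 and 2.07 TPM in PC3, so that knockdown left 24.6% and 22.5% of control. FOLH1, a prostate surface antigen, was 67.9 and 77.4 TPM in 22RV1 and 0.05 and 0.26 in PC3, and CAV1 was 0.45 and 0.39 TPM in 22RV1 and 162 and 130 in PC3. HOXB13, a prostate lineage factor, was present in both lines. Of 8 markers of leukocytes, endothelium and fibroblasts, 3 were under 1 TPM in all libraries, and the summed level of the 8 was 13.6 and 7.52 TPM in 22RV1 and 52.8 and 46.6 TPM in PC3, shCON first. Mitochondrial genes held 8.10 to 13.0% of the TPM and rRNA genes 0.0872 to 3.13%, and rRNA was lower with shDDX52 in 22RV1 and higher in PC3. The part of these shifts in the values below was not tested beyond the rescaling given with each result it touched.

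The FOS family was nearly silent in 22RV1 and was carried by FOSL1 in PC3. FOS, the founding member of the family (chr14:75278774-75282230 in GENCODE 29), was 0.84 and 1.44 TPM in 22RV1 and 0.57 and 0.44 TPM in PC3, with shCON given first. It stayed close to or under 1 TPM in every library, and the 22RV1 values were the higher ones. FOSB, a close relative of FOS (chr19:45467995-45475179), was 0.78 and 0.86 TPM in 22RV1 and 0.32 and 0.74 TPM in PC3, shCON first. It was under 1 TPM in all 4 libraries. FOSL1, also known as FRA1 and linked to invasive growth of carcinoma cells (chr11:65892049-65900573), was 0.43 and 0.56 TPM in 22RV1 and 226 and 408 TPM in PC3. Both PC3 values lay far above both 22RV1 values, and the shDDX52 library was the highest. FOSL1 ranked 639 of all genes in PC3 shCON and 350 in PC3 shDDX52.

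The JUN family was present in all libraries, with a different leading member in each line. JUN (chr1:58780788-58784327) was 15.5 and 9.49 TPM in 22RV1 and 21.7 and 29.7 TPM in PC3, shCON first. Both PC3 values were above both 22RV1 values, and the lowest and the highest of the 4 were both in shDDX52 libraries. JUNB, which often restrains JUN activity (chr19:12791496-12793315), was 26.4 and 25.5 TPM in 22RV1 and 175 and 128 TPM in PC3. Both PC3 values were above both 22RV1 values. JUND, the member least dependent on acute signals (chr19:18279760-18281622), was 68.4 and 75.7 TPM in 22RV1 and 65.8 and 50.6 TPM in PC3. Its levels in the 2 control libraries differed by −0.06 on the log2 scale, with a pseudocount of 1 TPM, and by 0.01 when centred on the median of all genes, so no direction is given for it.

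**Figure D1:**
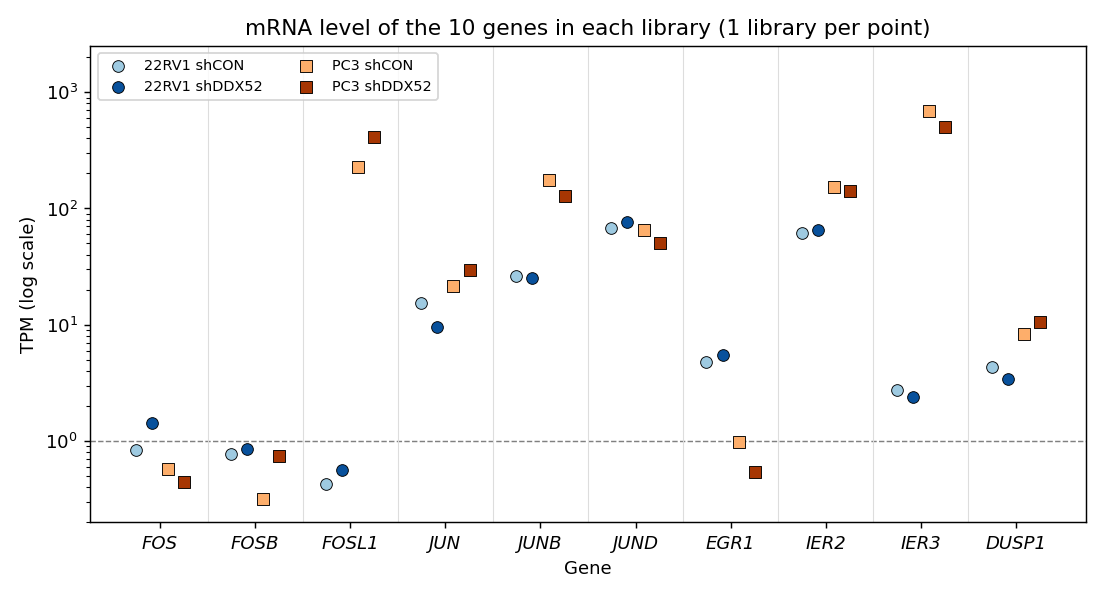
TPM, on a log axis, of the 10 members in each of the 4 libraries, with circles for 22RV1 and squares for PC3, light for shCON and dark for shDDX52, and a dashed line at 1 TPM. FOSL1 and IER3 stand above 200 TPM in both PC3 libraries and at or below 2.73 TPM in both 22RV1 libraries, whereas FOS and FOSB stay below 1.5 TPM throughout.

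Of the remaining members, IER3 had the highest level. IER3, a regulator of survival and ERK signalling (chr6:30743199-30744554), was 2.73 and 2.39 TPM in 22RV1 and 684 and 499 TPM in PC3, shCON first. It was the most abundant member in both PC3 libraries and was among the scarce members in 22RV1. IER2, a nuclear early response protein (chr19:13150415-13154908), was 61.7 and 64.9 TPM in 22RV1 and 154 and 143 TPM in PC3. EGR1 (chr5:138465490-138469315) went the other way, with 4.78 and 5.52 TPM in 22RV1 and 0.98 and 0.54 TPM in PC3. DUSP1 (chr5:172768090-172771195) was 4.29 and 3.44 TPM in 22RV1 and 8.37 and 10.5 TPM in PC3. The 10 members together summed to 186 and 190 TPM in 22RV1 and 1337 and 1270 TPM in PC3.

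The 2 control libraries were compared next, to place the members' difference between the cell lines. TPM was scaled within each library and the lines were deposited in separate tables, so this comparison sets levels across tables. Of the 10 members, 8 had at least 1 TPM in either control library and FOS and FOSB did not. At least 2-fold higher in PC3 were FOSL1, IER3, JUNB and IER2, where 19.9% of 15727 genes were, and FOSL1 entered only through its PC3 level. At least 2-fold lower in PC3 was EGR1, where 21.3% of genes were, and EGR1 entered only through its 22RV1 level. These shares are large because the 2 lines differ widely, so the count of members is no result about them by itself. The sizes were 7.31 for FOSL1, 7.52 for IER3, 2.68 for JUNB, 1.31 for IER2 and −1.55 for EGR1, as log2 differences with a pseudocount of 1 TPM. FOSL1 and IER3 both lay at percentile 99.8 of all genes tested, JUNB at 95.5 and EGR1 at 10.6. JUN and DUSP1 differed by 0.46 and 0.82, under 2-fold. The median difference was 1.07 over the 8 members and −0.07 over all genes tested, and 0.64 over all 10 members.

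The same differences appeared between the 2 shDDX52 libraries, which are separate from the control libraries. There, 9 members had at least 1 TPM in either library, 6 were at least 2-fold higher in PC3 (21.0% of 15598 genes) and EGR1 was at least 2-fold lower (20.2%). FOSL1 again entered only through its PC3 level, and EGR1 and FOS only through their 22RV1 levels. The differences were 8.03 for FOSL1, 7.20 for IER3, 2.29 for JUNB, 1.13 for IER2 and −2.08 for EGR1. JUN and DUSP1 passed 2-fold here, at 1.55 and 1.37.

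The make-up of AP-1 mRNA differed between the lines accordingly. FOSL2, the fourth member of the FOS family, was added for this sum and was 1.99 and 1.62 TPM in 22RV1 and 16.74 and 29.04 TPM in PC3, shCON first. The 4 FOS-family genes summed to 4.04 and 4.48 TPM in 22RV1 and 244 and 438 TPM in PC3. The 3 JUN-family genes summed to 110 and 111 TPM in 22RV1 and 262 and 208 TPM in PC3. FOS-family mRNA was thus 3.53% and 3.89% of the 7 subunits in 22RV1, against 48.2% and 67.8% in PC3. There were 27.3 and 24.7 JUN-family transcripts for each FOS-family transcript in 22RV1, and 1.07 and 0.475 in PC3. Within the FOS family, FOSL1 held 92.8% and 93.1% of the PC3 sum. Within the JUN family, JUND held 62.0% and 68.4% of the 22RV1 sum, and JUNB held 66.7% and 61.5% of the PC3 sum. These are mRNA shares and give no measure of protein or of dimers.

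**Figure D2:**
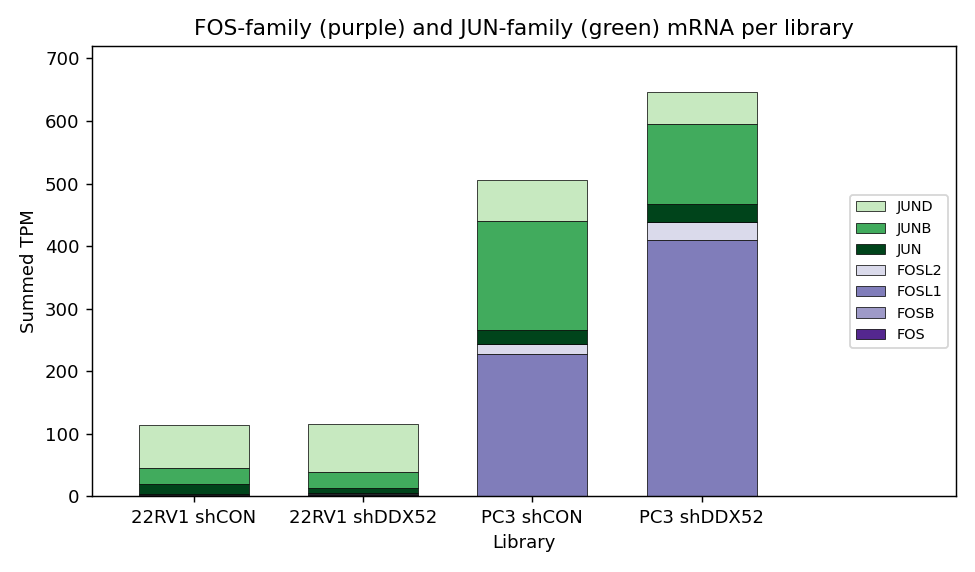
Stacked TPM of the 4 FOS-family genes (purple) and 3 JUN-family genes (green) in each library, starting at 0; FOS and FOSB are too low to be seen. The purple part is 4.04 and 4.48 TPM in the 22RV1 libraries and 244 and 438 TPM in the PC3 libraries. In PC3, but not in 22RV1, nearly all of it is FOSL1.

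The question of the series is what changes with loss of DDX52, and no member that reached 1 TPM in a line changed 2-fold there. Changes are given as log2((TPM shDDX52 + 1) / (TPM shCON + 1)), where 1 is 2-fold. On this scale the change of genes at low TPM is understated. In 22RV1, 8 of 10 members had at least 1 TPM in either library, FOS only through its shDDX52 value, and FOSB and FOSL1 did not. Of these 8, 0 were lower and 0 were higher by 2-fold or more, where 2.86% and 2.24% of 14438 genes were. In PC3, 7 members had at least 1 TPM in either library, and FOS, FOSB and EGR1 did not. Of these 7, 0 were lower and 0 were higher by 2-fold or more, against 3.44% and 2.86% of 14262 genes. These shares are low, so counts of 0 among 7 or 8 genes are near the background. With 1 library a condition, the smallest change that could be told from the spread between cultures is unknown.

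JUN was the member furthest down in 22RV1 and FOSL1 the member furthest up in PC3. JUN in 22RV1, at 15.5 and 9.49 TPM, was 61.2% of control, a log2 ratio of −0.65 at percentile 6.62 of all genes tested. It was the only member at least 1.5-fold lower there, where 8.47% of genes were, and on this scale no member was at least 1.5-fold higher, where 5.61% were. FOS, at 0.84 and 1.44 TPM, was 171% of control without a pseudocount, and its log2 ratio was 0.71 with a pseudocount of 0.1, past 1.5-fold. FOSL1 in PC3, at 226 and 408 TPM, was 180% of control, a log2 ratio of 0.85 at percentile 96.0. It was the only member at least 1.5-fold higher there, where 8.95% of genes were, and no member was at least 1.5-fold lower, where 9.84% were. The log2 ratio of JUN in 22RV1 ranged from −0.70 to −0.58 over the scalings and pseudocounts tried, and that of FOSL1 in PC3 from 0.85 to 0.98.

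In PC3, the members did not move as one group. JUN had a log2 ratio of 0.44 and DUSP1 of 0.29, on the same side as FOSL1. IER3, JUNB and JUND had log2 ratios of −0.45, −0.45 and −0.37, with JUNB and JUND at percentiles 15.3 and 19.3. Thus JUN lay on one side of 0 and JUNB and JUND on the other, under each scaling and pseudocount tried. IER2 had −0.11, and this turned to 0.02 when shares were taken over nuclear protein-coding genes alone. EGR1 was 55.1% of control in PC3 and FOSB was 231%, but neither reached 1 TPM in either library and both log2 ratios were small on this scale (−0.36 and 0.40). The median log2 ratio was −0.11 over the 7 members and −0.04 over all genes tested.

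In 22RV1, all members but JUN lay near 0 or at low TPM. FOS had the highest log2 ratio, 0.41, at 0.84 and 1.44 TPM. EGR1, JUND and IER2 had 0.17, 0.14 and 0.07, IER3 and DUSP1 had −0.14 and −0.25, and JUNB had −0.05. JUNB turned to 0.02 when centred on the median of all genes, so no direction is given for it. The median was 0.01 over the 8 members and −0.08 over all genes tested, with 4 members on each side of 0.

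**Figure D3:**
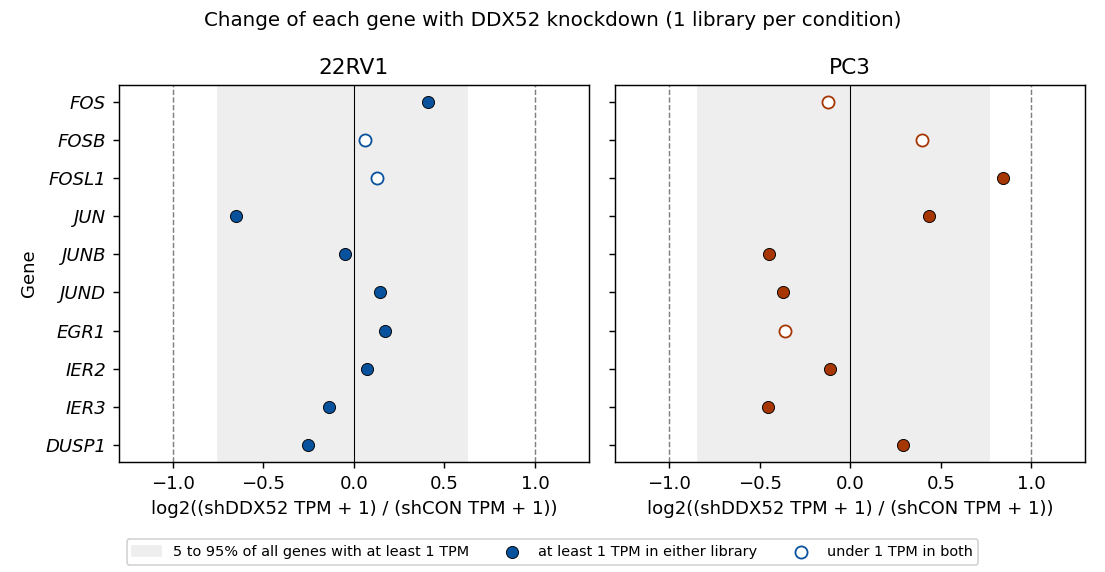
Log2 ratio of shDDX52 to shCON for each member in 22RV1 (left) and PC3 (right), with open points for members under 1 TPM in both libraries, dashed lines at 2-fold and grey bands that hold the middle 90% of all genes tested. JUN in 22RV1 (−0.65) lies near the lower edge of its band, at −0.75, and FOSL1 in PC3 (0.85) lies just past the upper edge of its band, at 0.77.

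The 2 lines were then set side by side. In both lines, 6 members reached 1 TPM in a library, and 4 of these 6 had log2 ratios of opposite sign, where 48.8% of 12175 genes did. JUN and DUSP1 were lower in 22RV1 and higher in PC3, whereas JUND and IER2 were higher in 22RV1 and lower in PC3. The IER2 value in PC3 changed sign when shares were taken over nuclear protein-coding genes alone. IER3 was below 0 in both, and so was JUNB as deposited, though its value in 22RV1 changed sign with the scaling. The share of opposite signs is not far from that of all genes, and the differences between the lines were not tested.

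The wider pathway was read from 8 lists of 105 distinct genes. Of the listed genes that reached 1 TPM in 22RV1, 1 of 84 was lower and 1 of 84 higher by 2-fold or more, or 1.19% each. In PC3, 2 of 89 were lower and 3 of 89 higher, or 2.25% and 3.37%. The shares of all genes given above were larger, except for the higher genes in PC3. The median log2 ratio of the listed genes was 0.03 in 22RV1 and 0.14 in PC3.

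Other immediate early transcription factors lay below 0 in 22RV1 and mostly above 0 in PC3. All 9 that reached 1 TPM in 22RV1 were lower with shDDX52, where 58.8% of all genes were, with a median of −0.19, and 0 changed 2-fold. In PC3, 7 of 9 were higher, where 46.3% of all genes were, with a median of 0.37. NR4A1, an orphan nuclear receptor, was 7.82 and 6.78 TPM in 22RV1 and 4.38 and 10.7 TPM in PC3. Its log2 ratio in PC3 was 1.12, the only 2-fold change of this list. ATF3, a stress-induced partner of JUN, was 16.9 and 10.1 TPM in 22RV1 and 11.02 and 19.1 TPM in PC3, with log2 ratios of −0.68 and 0.74. It had the signs of JUN in both lines, and was named after its values were seen.

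Among the AU-rich element binding, BTG and other early genes, a single gene passed 2-fold in each line. BTG2, an antiproliferative early gene, went from 12.4 to 33.4 TPM on knockdown in 22RV1 (log2 ratio 1.36) and stood at 0.70 and 1.31 TPM in PC3. CCN1, a secreted matrix protein whose gene answers to SRF and YAP, went from 215 to 455 TPM on knockdown in PC3 (log2 ratio 1.07) and stood at 2.04 and 2.13 TPM in 22RV1. Of the 15 genes of this list that reached 1 TPM in 22RV1, 1 changed 2-fold, and so did 1 of 16 in PC3. Of all genes, 2.86% were lower and 2.24% higher by 2-fold in 22RV1, and 3.44% and 2.86% in PC3. A single gene in a list of this length is near that background.

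The EGFR ligands and AP-1 target genes were the list that differed most between the lines. Of the 9 that reached 1 TPM in either control library, 8 were at least 2-fold higher in PC3, where 19.9% of all genes were. Some of these 8 entered only through their PC3 level. CCND1 was at least 2-fold lower, where 21.3% were, and the median log2 difference of the list was 4.23. With knockdown in PC3, AREG, which encodes the EGFR ligand amphiregulin, went from 44.7 to 14.7 TPM, a log2 ratio of −1.54, while FOSL1 was 180% of control. In 22RV1, CD44, a hyaluronan receptor, went from 17.1 to 7.01 TPM, a log2 ratio of −1.17. In PC3 the mesenchymal marker VIM was 12.6 TPM with shCON and 66.7 with shDDX52, and AXL 32.6 and 79.3, both higher along with FOSL1. Of the other PC3 markers, CAV1 and CAV2 were lower with shDDX52, at 162 and 130 TPM and at 44.1 and 33.0 TPM, and CD44 was 571 and 664 TPM, a log2 ratio of 0.22. The part of these markers in the result was not tested.

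Of the upstream and feedback genes, 1 passed 2-fold in PC3 and 0 in 22RV1. Of all genes, 2.86% were lower and 2.24% higher in 22RV1, and 3.44% and 2.86% in PC3. The counts given here for single lists pool both directions, and those of 0 are near this background. Of the RAS, ERK, JNK and p38 genes, MAP2K6, which encodes a p38 kinase kinase, was the only 2-fold change, from 6.0 to 2.36 TPM in PC3, and the medians were −0.01 in 22RV1 and 0.06 in PC3. Of the 7 SRF, MRTF and ELK factors, 0 changed 2-fold, and 6 of 7 were above 0 in PC3 with a median of 0.34, against 5 of 7 and a median of 0.07 in 22RV1. SRF was 19.1 and 21.8 TPM in 22RV1 and 20.7 and 26.4 TPM in PC3, and its partner ELK1 was 41.6 and 48.9 TPM in 22RV1 and 19.99 and 26.95 TPM in PC3. Of the 14 MAP kinase phosphatases and Sprouty feedback genes, 0 changed 2-fold in either line. DUSP2 was 30.3 and 40.2 TPM in 22RV1 and 1.66 and 1.78 in PC3, and DUSP4 was 3.49 and 2.38 TPM in 22RV1 and 42.4 and 24.7 in PC3. Among AP-1 dimer partners, 0 of 10 in 22RV1 and 0 of 9 in PC3 changed 2-fold. MAFK and MAFF, small partners of the bZIP class, had the highest mean TPM, with log2 ratios of 0.21 and −0.14 in 22RV1 and 0.29 and −0.05 in PC3. NAB1 and NAB2, co-repressors of EGR proteins, had log2 ratios of 0.47 and 0.01 in 22RV1 and 0.12 and 0.24 in PC3.

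**Figure D4:**
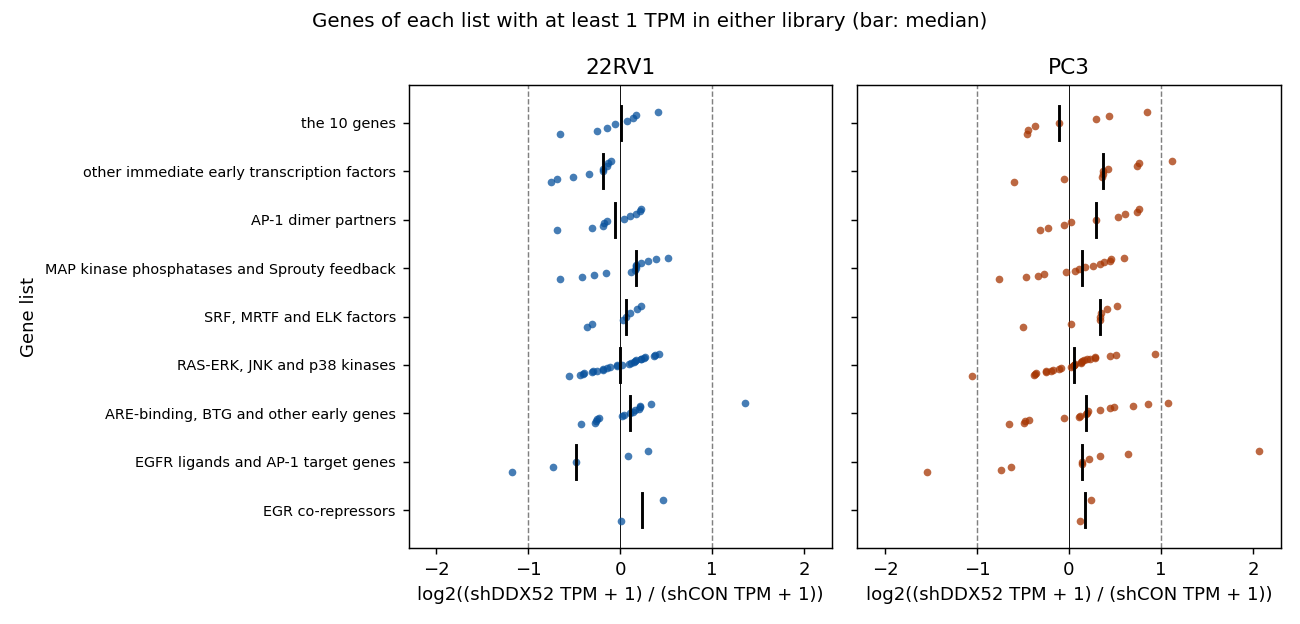
Log2 ratio of shDDX52 to shCON for the members and for each wider gene list in 22RV1 (left) and PC3 (right), 1 point per gene that reached 1 TPM, bars at the medians and dashed lines at 2-fold. The other immediate early transcription factors have medians of −0.19 in 22RV1 and 0.37 in PC3, and the points past 2-fold include BTG2 and CD44 in 22RV1 and NR4A1, MAP2K6, CCN1 and AREG in PC3.

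Genes with a like pair of log2 ratios were looked up for FOS, JUN and EGR1 among 5959 other genes with at least 10 TPM in each line, by the distance between the pairs over the 2 lines. Nearest to JUN were CBLL1, KPNA1 and TFRC, at distances of 0.02, 0.03 and 0.07. TFRC, the transferrin receptor, was 41.6 and 27.4 TPM in 22RV1 and 86.9 and 117 TPM in PC3. Nearest to FOS were MXD3, MAP1S and MRPS18A, and nearest to EGR1 were TXN2, MAP2K2 and C11orf80, all within 0.03. FOS is at low TPM in both lines and EGR1 in PC3, so their pairs are less certain than that of JUN. With a pseudocount of 0.1, FOS had 0.71 in 22RV1 and −0.31 in PC3, where a pseudocount of 1 gave 0.41 and −0.12. EGR1 in PC3 had −0.75, where a pseudocount of 1 gave −0.36. These shifts are larger than 0.03, so the genes nearest to FOS and EGR1 are given for a pseudocount of 1 only. Whether other genes are nearest with 0.1 was not tested.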

How the data were processed

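RNA-seq libraries with shCON or shDDX52 were analysed, 1 for each condition in each line. The authors mapped the reads on their provider's online platform and deposited TPM values per Ensembl gene. The submitters' processing notes name CASAVA, HISAT2 and the build hg19 without versions. The counting program and annotation are not given in the sources used here. Whether counting used strand is also not given, so reads from overlapping antisense genes cannot be told apart. TPM keeps no depth, so no interval and no count test could be made. Of the 60671 identifiers, 42020 had a symbol in a table of gene names and 58453 were in GENCODE 29 on GRCh38, which gave gene types and transcripts. Promoter sequences were from RefSeq on GRCh38.p14. Positions therefore refer to those references, not to the authors' build.

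Log2 ratios used a pseudocount of 1 TPM. A gene entered where either library reached 1 TPM. A gene was called changed at 2-fold, a rule of size and not a test. The code for the ratio and the calls was run on simulated data, which checks its arithmetic and not the values reported here. All members were named, and from each wider list the genes past 2-fold with at least 5 TPM, or else the 2 of highest mean TPM. One gene that met the rule is not reported here. FOSL2, ATF3, CCND1, VIM and AXL were named outside that rule. The members and lists were chosen with earlier results of these data known. Alternatives were the pseudocount, the filter, the scaling and the fold. Scripts ran in Python 3.11.15 with matplotlib 3.10.9, pandas 2.3.3 and numpy 2.4.6.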

Additional observations from a re-analysis of the deposited data

Results flagged for a closer look

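For 4 members that reached 1 TPM in both cell lines, the log2 ratios had opposite signs in 22RV1 and PC3. The log2 ratio in PC3 minus that in 22RV1 was 1.09 for JUN (0.44 against −0.65), 0.54 for DUSP1 (0.29 against −0.25), −0.52 for JUND (−0.37 against 0.14) and −0.18 for IER2 (−0.11 against 0.07). For IER2 the sign in PC3 was not kept when TPM was recomputed over nuclear protein-coding genes. With 1 library per condition, none of these differences was tested.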

How the results depend on the processing

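The 39 values and counts were recomputed under 240 combinations with an alternative, and 226 kept their direction and their side of 2-fold or moved little (counts within 1.5 times, medians within 0.1). Changing the filter does not touch the log2 ratio of a single member, so those combinations were the same by construction. They are among the 226, which therefore overstates how much was tested. At 1.5-fold, the count of lower members in 22RV1 and of higher members in PC3 each went from 0 to 1. Without mitochondrial genes and the 20 highest genes, the median in PC3 was −0.21. The median of the control lines' difference was 1.31 with at least 5 TPM, 0.64 with no filter, 0.79 with nuclear protein-coding scaling and 0.89 without mitochondrial and the 20 highest genes, and at 5 TPM the count of lower members became 0, since EGR1 then leaves the filter. Reversed were IER2 in PC3 with nuclear protein-coding scaling (0.0191), JUNB in 22RV1 when centred (0.0244) and without mitochondrial and the 20 highest genes (0.0011), and JUND between control lines when centred (0.0109). With a pseudocount of 0.1, FOSB, under 1 TPM throughout, reached 1.00 in PC3 and −1.07 between control lines. Nuclear protein-coding scaling moved the median of all genes in PC3 from −0.04 to 0.09 and between control lines from −0.07 to −0.10. What lay behind these changes was not tested otherwise. No paired analysis was possible because, within a line, a single library stood for every condition, and the 2 lines were not treated as replicates of each other. Depth is unknown, so values near 1 TPM are the least certain.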
